A study of Arabidopsis thaliana with 6 samples.

Results

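The receptor-like proteins (RLPs) of Arabidopsis thaliana were compared between wild-type seedlings and seedlings of the mutant hrlp-2. The RLP rows were chosen by their names in the deposited tables, as every row named RLP or AtRLP followed by a number, which gave 50 of 22759 named rows. No measured value entered that choice, but the family was proposed with results of this same contrast known, so its counts are a description and nothing is read from them. WT was the Columbia accession (labelled Col), and hrlp-2 is labelled as an HRLP knock out. Each group had 3 libraries, described as biological replicates, of total RNA from aerial tissue of seedlings 9 days old. Both groups were grown alike, in 16 h light and 8 h dark at 23 ± 2 °C. Each table gives counts of reads relative to the library total (CPM), and the step between low values set 1 CPM equal to 19.95 to 25.18 reads.

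RLPs are cell-surface receptors with an extracellular domain of leucine-rich repeats, a membrane-spanning segment and a short tail without a kinase. They signal by pairing with receptor kinases: many bind SOBIR1 constitutively and recruit BAK1 when a ligand arrives. Several recognise fragments of bacteria, fungi or oomycetes and start immune signalling, while CLV2 and TMM, which are RLPs known by other names, act in stem cell and stomatal development. Many RLP genes lie in tandem clusters.

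HRLP itself (AT2G44710) was at 30.03, 33.04 and 30.37 CPM in WT and at 16.76, 17.03 and 15.88 CPM in hrlp-2. The groups did not overlap, and the transcript remained present in each mutant library (log2 fold change -0.87, limma adjusted p = 3.99e-12). Pairs with the third WT library had a mean chi-square per row of 11.24 and 13.37 on estimated reads, against 2.25 to 2.51 for the other pairs within groups. Their medians, 0.871 and 0.902, lay within the 0.796 to 0.916 of the other pairs, so a minority of rows carried the difference. Without it, 6 RLP rows were called lower and 1 higher, where the full comparison called 7 and 2. All fold changes are hrlp-2 against WT on the log2(CPM + 0.5) scale, where changes of weakly expressed genes come out too small. Adjusted p-values come from limma with Benjamini-Hochberg adjustment over 18643 rows that had at least 0.5 CPM in at least 3 libraries, and "called" means an adjusted p under 0.05.

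Upstream sequences are shown for 3 of the called genes: AtRLP31, the RLP row with the lowest adjusted p, AtRLP50, which fell while the other RLP rows of its cluster were not called, and AtRLP23, one of the rows that rose. Each is the 250 bases before the annotated gene start, 5′ to 3′ on the gene's strand, from the RefSeq TAIR10.1 genome. Capitals mark the W-box core TTGAC on either strand (GTCAA when on the other), the core of the element bound by WRKY transcription factors. The windows are chr3:1538871-1539120 on the minus strand for AtRLP31, chr4:8043553-8043802 on the plus strand for AtRLP50 and chr2:13862615-13862864 on the minus strand for AtRLP23.
AtRLP31: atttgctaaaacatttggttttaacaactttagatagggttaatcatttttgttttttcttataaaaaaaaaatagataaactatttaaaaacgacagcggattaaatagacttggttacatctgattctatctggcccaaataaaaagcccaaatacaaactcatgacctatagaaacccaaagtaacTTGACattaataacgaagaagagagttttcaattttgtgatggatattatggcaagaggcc
AtRLP50: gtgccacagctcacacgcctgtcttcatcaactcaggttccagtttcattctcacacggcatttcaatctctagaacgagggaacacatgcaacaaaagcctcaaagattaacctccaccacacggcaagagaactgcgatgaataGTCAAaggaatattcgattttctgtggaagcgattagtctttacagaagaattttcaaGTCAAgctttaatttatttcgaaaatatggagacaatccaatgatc
AtRLP23: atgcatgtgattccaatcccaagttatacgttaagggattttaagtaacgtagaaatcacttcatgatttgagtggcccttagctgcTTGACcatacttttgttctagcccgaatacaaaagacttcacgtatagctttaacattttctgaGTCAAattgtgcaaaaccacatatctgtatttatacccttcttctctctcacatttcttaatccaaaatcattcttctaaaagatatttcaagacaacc
The AtRLP31 window held 1 core, and those of AtRLP50 and AtRLP23 held 2 each.

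The core was found in the 250 upstream bases of 39 of the 50 RLP genes (78.0%), against 12329 of 27443 protein-coding genes (44.9%). At least 2 cores were found for 22.0% of the RLP genes and 14.1% of all genes. The mean A and T content was near equal, at 68.2% and 68.5%. Among RLP rows the core was present for 7 of 9 called, 20 of 27 tested but not called and 12 of 14 not tested. These are matches of letters in a window, given without a test, and neighbouring RLP genes share ancestry. Windows were not cut at neighbouring genes, for RLP genes or for all genes. Some RLP windows run into another protein-coding gene, among called rows those of AtRLP32, ATRLP40 and AtRLP54.

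Of the 50 RLP rows, 36 passed the filter on low values, and 14 did not. In hrlp-2, 7 rows fell and 2 rose, which is 19.4% and 5.6% of those tested, where 9.31% of all tested rows were called lower and 11.0% higher. The 7 include ATRLP40, which passed the filter through its WT libraries. With a filter of 1 CPM it was not tested, and 6 rows were called lower. On deposited CPM, the groups did not overlap in 13 of the 36 (36.1%), 11 of them lower and 2 higher in hrlp-2. Of all 18643 tested rows, 33.4% did not overlap in either direction, 3492 rows lower and 2743 higher in hrlp-2. The median log2 fold change of the 36 rows was -0.09, against 0.002 over all tested rows, with 14 rows above 0 and 22 below. The summed CPM of the 50 rows was 275.56 to 279.56 in WT and 235.46 to 246.93 in hrlp-2. In bulk RNA of the aerial parts, fewer cells that express a gene and less RNA per cell cannot be told apart.

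**Figure D1:**
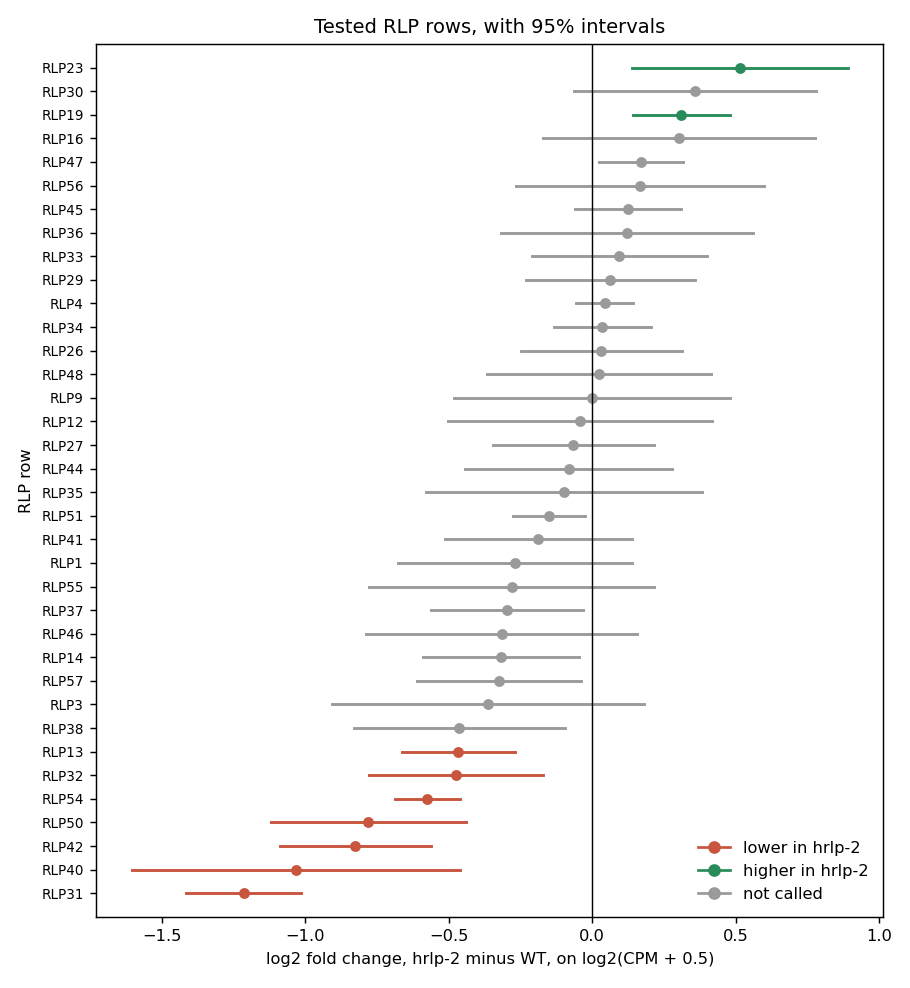
Log2 fold change (hrlp-2 minus WT, on log2(CPM + 0.5)) of each tested RLP row, with bars for the 95% interval from limma. AtRLP31 stands at -1.21 and ATRLP40 at -1.03 with a wider interval, and the 9 called rows are coloured.

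AtRLP31 (AT3G05370) had the lowest adjusted p of the RLP rows. It was at 15.06, 14.81 and 15.66 CPM in WT and at 6.43, 6.59 and 5.52 CPM in hrlp-2. The 3 mutant libraries lay far below the 3 WT libraries, which differed little among themselves. The means were 15.18 ± 0.437 and 6.18 ± 0.577 CPM (SD, n = 3 each), a 2.32-fold fall (log2 fold change -1.21, SE 0.0988, limma adjusted p = 3.52e-11). In the TAIR10.1 annotation the gene spans 1535950 to 1538870 of chromosome 3 and is read from the minus strand. Its neighbour RLP30, an RLP needed for the response to an elicitor of the fungus Sclerotinia, was at 1.11, 1.29 and 1.13 CPM in WT and at 2.18, 1.5 and 1.29 CPM in hrlp-2. Those groups touch at 1.29 CPM, and RLP30 was not called (log2 fold change 0.36, limma adjusted p = 0.245). The coding sequences of the pair are 75.1% identical over aligned bases, gaps left out, with a longest shared run of 23 bases. The other tested neighbours of AtRLP31, AT3G05365 and AT3G05380, were not called either (limma adjusted p = 0.912 and 0.137).

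AtRLP54 (AT5G40170) was the most abundant of the called rows. Its WT libraries were at 35.94, 36.19 and 36.66 CPM and its hrlp-2 libraries at 23.86, 23.03 and 24.72 CPM. Within each group the libraries lay close together, and the gap between groups exceeded that spread. The fall was 1.49-fold (log2 fold change -0.57, SE 0.0561, limma adjusted p = 2.07e-09).

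AtRLP42, also known as RBPG1, recognises fungal polygalacturonases, enzymes that break down pectin. It was at 6.89, 9.27 and 8.92 CPM in WT and at 4.86, 4.43 and 3.95 CPM in hrlp-2. All mutant libraries lay below all WT libraries, a 1.77-fold fall (log2 fold change -0.83, SE 0.129, limma adjusted p = 1.1e-05). ATRLP40, from the same cluster, was at 2.37, 0.55 and 1.74 CPM in WT and at 0.42, 0.25 and 0.62 CPM in hrlp-2. Here the groups overlapped, since the second WT library lay below the third mutant library. ATRLP40 was called lower (log2 fold change -1.03, SE 0.280, limma adjusted p = 7.43e-03), but not without the first WT library (-0.73, adjusted p = 0.102) or the third (-0.91, adjusted p = 0.0577). It passed the filter through its WT libraries, since 1 of its 3 hrlp-2 libraries reached 0.5 CPM. Its size depends on the scale: it fell less than AtRLP31 with the pseudocount of 0.5 CPM, but more with a pseudocount of 0.1 CPM (-1.48 against -1.27), with limma-voom on estimated reads (-1.60 against -1.27) and without the second WT library (-1.46 against -1.24). AT3G24929, which overlaps ATRLP40 on the opposite strand, fell too (log2 fold change -0.89, limma adjusted p = 4.79e-05), and the strand setting of the read counting is not given in the sources used here.

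The AtRLP39 to AtRLP42 genes are near-identical over stretches, so reads could be split or shared between their rows. ATRLP40 and AtRLP42 have coding sequences 95.7% identical over aligned bases, gaps left out, and a shared run of 244 bases. Summed over AtRLP39, ATRLP40, AtRLP41 and AtRLP42, the rows held 13.21, 14.74 and 16.00 CPM in WT and 10.33, 8.83 and 7.89 CPM in hrlp-2. The summed groups did not overlap either, and the sum fell (log2 fold change -0.66, limma adjusted p = 7.14e-06). AtRLP41, which is 91.2% to 91.5% identical to the others, was not called by itself (log2 fold change -0.19, limma adjusted p = 0.461).

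AtRLP50 (AT4G13920) was at 4.10, 3.52 and 3.33 CPM in WT and at 2.05, 1.62 and 2.00 CPM in hrlp-2. Every mutant library was below every WT library, and the fall was 1.72-fold (log2 fold change -0.78, SE 0.166, limma adjusted p = 7.4e-04). AtRLP48 and RLP47 lie in the same cluster and were not called, at log2 fold changes of 0.02 and 0.17 (limma adjusted p = 0.949 and 0.093). RLP47 was called higher without the third hrlp-2 library (0.23, adjusted p = 0.0406). AtRLP48 and AtRLP50 share a run of 89 coding bases. Summed over RLP47, AtRLP48 and AtRLP50 the change was 0.04 (limma adjusted p = 0.704), and RLP47 holds most of the summed CPM. The antisense transcript AT4G13918 was not called (limma adjusted p = 0.915).

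AtRLP13 (AT1G74170) was at 13.10, 12.68 and 10.82 CPM in WT and at 8.38, 8.79 and 8.47 CPM in hrlp-2. The mutant libraries lay together below the lowest WT library, with a 1.38-fold fall (log2 fold change -0.47, SE 0.0968, limma adjusted p = 5.58e-04). Of its cluster, AtRLP14 and AtRLP16 had log2 fold changes of -0.32 and 0.30 and were not called (limma adjusted p = 0.0952 and 0.407), and AtRLP15 was not tested. AtRLP14 was called lower without the second hrlp-2 library (-0.46, adjusted p = 0.0225). AtRLP32, which recognises the bacterial translation initiation factor IF1, was at 5.23, 3.95 and 4.30 CPM in WT and at 2.82, 3.10 and 3.18 CPM in hrlp-2. The groups did not overlap, but the gap between them was narrower than the range within WT. The same holds for AtRLP42, AtRLP13, AtRLP19 and AtRLP23. AtRLP32 was called lower (log2 fold change -0.47, SE 0.149, limma adjusted p = 0.0212), but not without the first WT library (-0.37, adjusted p = 0.138) or the first hrlp-2 library (-0.43, adjusted p = 0.0714). Its neighbour AtRLP33 was not called (log2 fold change 0.09, limma adjusted p = 0.725).

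**Figure D2:**
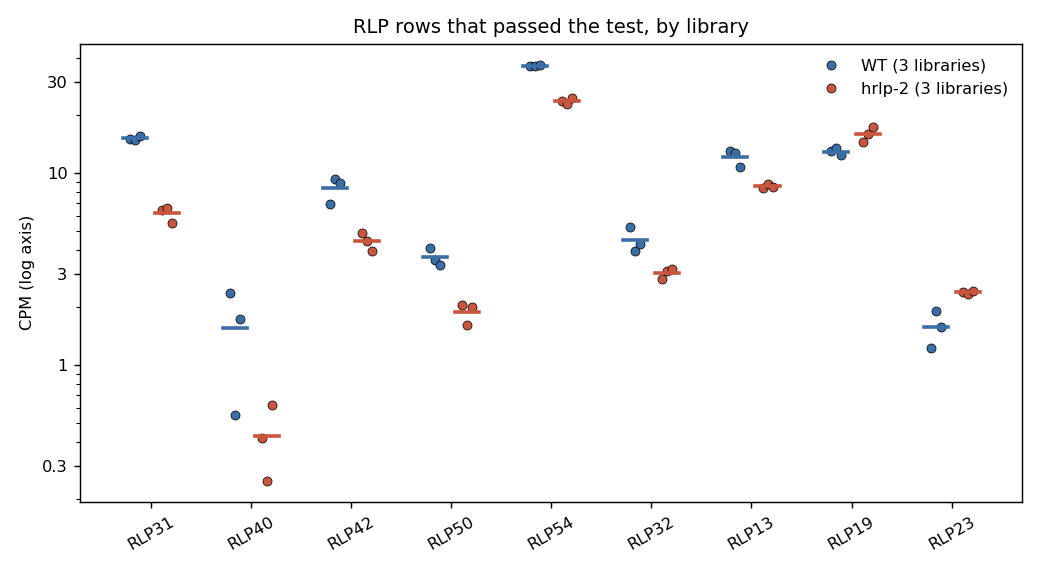
CPM (log axis) of each called RLP row in each library, with 3 WT and 3 hrlp-2 points and a bar at the group mean. The groups separate for each row but ATRLP40, where WT ranges from 0.55 to 2.37 CPM.

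AtRLP19 and AtRLP23 were the rows called higher. AtRLP19 (AT2G15080) was at 12.97, 13.48 and 12.40 CPM in WT and at 14.49, 16.03 and 17.49 CPM in hrlp-2. The groups did not overlap, and the rise was 0.31 on the log2 scale (SE 0.0832, limma adjusted p = 6.53e-03). It was not called without the third hrlp-2 library (0.25, adjusted p = 0.0666). AtRLP23, the receptor for the nlp20 fragment of microbial necrosis-inducing proteins, was at 1.23, 1.91 and 1.58 CPM in WT and at 2.42, 2.35 and 2.44 CPM in hrlp-2. The mutant libraries lay together above the WT range (log2 fold change 0.51, SE 0.185, limma adjusted p = 0.0452). That call rests near the threshold: AtRLP23 was called in 6 of 16 alternative settings, with adjusted p from 0.0366 to 0.19. Of the 6 fits that each left out 1 library, it was called in the fit without the second WT library and not in the other 5 (limma adjusted p = 0.0848 to 0.19). VAMP725, a membrane trafficking gene on the opposite strand that touches AtRLP23, was at 0.13 to 0.17 CPM in WT and 0.46 to 0.60 CPM in hrlp-2, too low to pass the filter.

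Other RLPs with a described role were not called. RLP51, also known as SNC2, which activates defence when mutated to an active form, was at 27.01, 30.87 and 28.34 CPM in WT and at 26.52, 25.13 and 24.68 CPM in hrlp-2. The groups do not overlap, but the fit gave a log2 fold change of -0.15 and a limma adjusted p of 0.08. It was called lower without the first WT library (adjusted p = 0.0435) and on deposited CPM that were not rescaled (adjusted p = 0.0485). AtRLP1, known as ReMAX, which perceives a Xanthomonas elicitor, had a log2 fold change of -0.27 with a 95% interval from -0.68 to 0.14 (limma adjusted p = 0.387). AtRLP3, known as RFO2 and linked to resistance to Fusarium, had -0.36 with an interval from -0.91 to 0.18 (limma adjusted p = 0.381). AtRLP44, which links the state of cell wall pectin to brassinosteroid signalling, had -0.08 with an interval from -0.44 to 0.28 (limma adjusted p = 0.807). RLP12, which can stand in for CLV2, had -0.04 with an interval from -0.50 to 0.42 (limma adjusted p = 0.927). AtRLP52, linked to powdery mildew resistance, was at 0.08 to 0.25 CPM and was not tested.

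AtRLP4, a receptor found at cell edges, had the highest level per length in the family. It was at 42.61, 43.24 and 44.13 CPM in WT and at 46.18, 43.96 and 42.08 CPM in hrlp-2, so the groups overlapped (limma adjusted p = 0.597). In WT its level was 23.03 CPM per kb of coding length. RLP51 followed at 22.18, and their ranges overlap (22.65 to 23.46 and 20.84 to 23.82), so their order is not resolved. AtRLP54 (15.24), RLP47 (9.03) and AtRLP31 (5.88) came next, with ranges over the WT libraries that do not overlap one another. ATRLP57, at 5.59, overlaps AtRLP31 in range (5.23 to 5.92 against 5.73 to 6.06). The lowest of the tested rows was AtRLP9, at 0.23 CPM per kb. Of the 10 highest by this measure, 9 were also among the 10 highest in CPM.

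**Figure D3:**
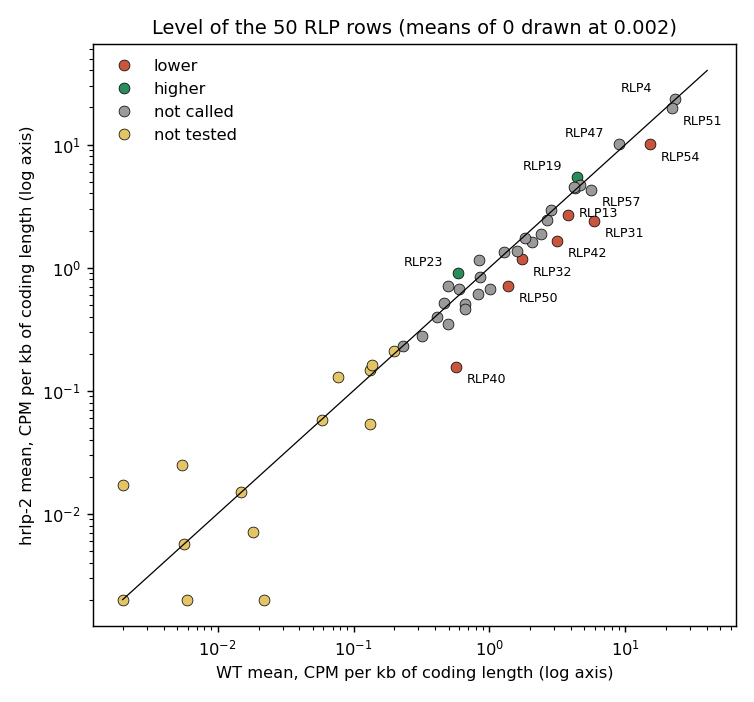
Mean level of the 50 RLP rows in WT (x axis) and hrlp-2 (y axis) in CPM per kb of coding length, both on log axes, with the line of equality. AtRLP4 lies highest at 23.03. In WT the called rows lie between 0.57 and 15.24, with a median of 3.13 against 1.27 for tested rows that were not called.

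Besides the called rows, 5 tested rows had groups that did not overlap, each lower in hrlp-2. These were AtRLP14, AtRLP37, AtRLP38, RLP51 and ATRLP57, with limma adjusted p from 0.0672 to 0.108. AtRLP37 and AtRLP38 share a run of 115 coding bases. Their summed rows were at 8.63, 8.78 and 7.79 CPM in WT and 6.31, 5.85 and 6.76 CPM in hrlp-2, and the sum was called lower (log2 fold change -0.37, limma adjusted p = 0.0162). The remaining tested rows overlapped between groups.

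The 14 rows that were not tested reached at most 0.70 CPM in a library. AtRLP22 was at 0 in all 6 libraries, where 3 reads would be 0.119 to 0.150 CPM. The filter kept ATRLP40 and RLP55, whose third-highest libraries were at 0.62 and 0.69 CPM, and left out AtRLP2 and AtRLP6, at 0.48 and 0.47 CPM. Among the untested rows AtRLP53 had groups that did not overlap, at 0.47, 0.31 and 0.36 CPM in WT and 0.16, 0.25 and 0.05 CPM in hrlp-2. Those levels are under the filter, and the difference was not tested. AtRLP53 shares runs of 142, 135 and 82 coding bases with AtRLP35, AtRLP34 and AtRLP43, so reads could be split between these rows. Summed over these 4 rows the log2 fold change was 0.01 (limma adjusted p = 0.939), and AtRLP34 holds most of the summed CPM.

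The family is spread over all chromosomes, with 13, 10, 16, 5 and 6 rows on chromosomes 1 to 5. Called rows numbered 1, 2, 4, 1 and 1 in the same order. RLP genes no more than 20 kb apart formed 12 clusters that hold 31 of the 50 genes. Of the called rows, 7 of 9 lie in a cluster, against 15 of 27 tested rows that were not called. Coding sequences ranged from 825 to 3252 bases, and 33 of the 50 genes have 1 coding exon. The nearest tested genes outside the family on either side of the called RLP genes numbered 17, of which 7 were called. Of all tested rows, 20.4% were called in either direction. The 7 were AT2G15050, AT2G15090, AT2G32650, AT2G32700, AT3G05640, AT4G13930 and AT5G40160, at log2 fold changes from -0.26 to 0.32. Only protein-coding genes with a matched locus that did not overlap the RLP gene were taken. AT3G24929, which overlaps ATRLP40 and fell, is therefore not among the 17.

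**Figure D4:**
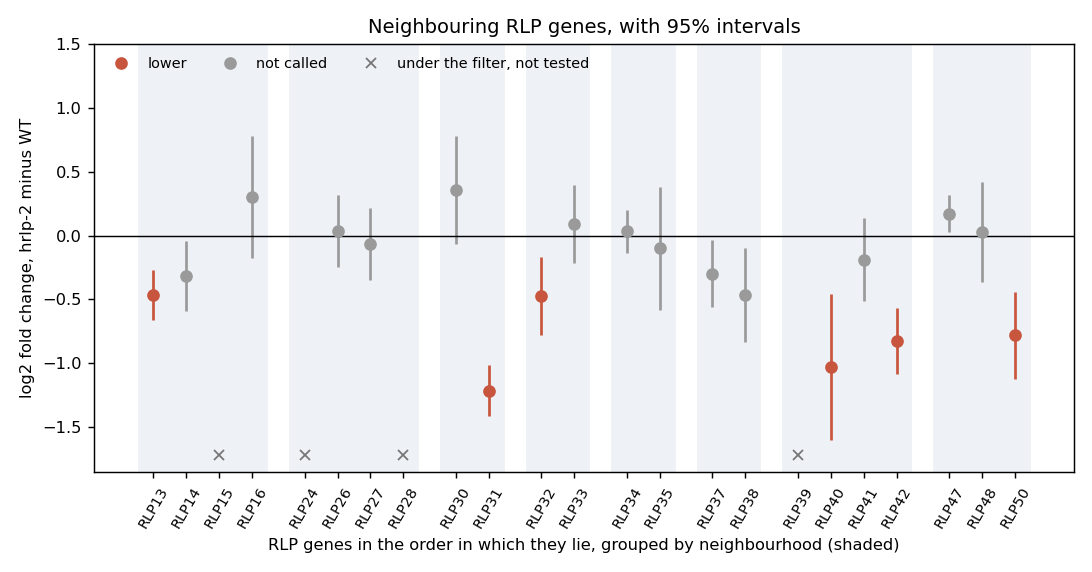
Log2 fold change (y axis, hrlp-2 minus WT, with 95% intervals) of RLP rows in their order along the chromosomes, for clusters (shaded) with more than 1 tested row. In the cluster of RLP30 and AtRLP31 the rows stand at 0.36 and -1.21, and crosses mark rows that were not tested.

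Genes tied to RLP signalling or to immunity more widely were taken from 5 lists. They cover the receptor complex, downstream signalling, the CLV2 and TMM pathways, receptors with their own kinase, and immune response genes. Not all of these act with RLPs. Over these lists, 17 of 53 tested members rose and 3 fell, or 32.1% and 5.7%, where 11.0% of all tested rows were called higher and 9.31% lower. In the order above, the lists gave 1, 4, 2, 2 and 8 of the 17 that rose. The counts of each list below stand against the same shares. SOBIR1, the kinase that RLPs pair with, was at 27.87, 25.15 and 26.58 CPM in WT and at 33.89, 34.07 and 36.10 CPM in hrlp-2. The groups did not overlap, and the rise was 1.32-fold (log2 fold change 0.40, SE 0.0575, limma adjusted p = 2.86e-06). It was the only 1 of 8 tested members of the receptor complex list to be called (median log2 fold change 0.06). BAK1, the shared co-receptor, was at 36.11 ± 1.48 and 36.96 ± 3.10 CPM (limma adjusted p = 0.596).

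In the list of genes downstream of RLPs, 4 of 12 tested members rose and none fell (median log2 fold change 0.12). These were the oxidase RBOHD (22.05 ± 0.728 to 27.42 ± 1.24 CPM), the kinases MPK3 (47.80 ± 1.05 to 54.46 ± 4.15) and PBL31 (21.23 ± 0.546 to 23.82 ± 0.342), and the helper receptor ADR1-L2 (14.77 ± 1.41 to 18.25 ± 0.543). EDS1 and PAD4, the lipase-like partners in this branch, were not called (limma adjusted p = 0.949 and 0.101). Of 7 tested receptors that carry their own kinase, the chitin receptors CERK1 and LYK5 rose (limma adjusted p = 0.0116 and 1.68e-03). LYK5 went from 2.60 ± 0.229 to 4.33 ± 0.334 CPM. LYK4 and EFR were not called, at log2 fold changes of -0.12 and -0.37 (limma adjusted p = 0.594 and 0.156). The groups of EFR did not overlap, with hrlp-2 lower. The median log2 fold change of this list was 0.04.

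The list labelled early immune response had 12 tested members, of which 8 rose and 1 fell (median log2 fold change 0.51). It is not limited to early genes, since it also holds salicylic acid genes such as PR1 and CBP60G. PR1, a salicylic acid marker, rose from 2.22 ± 0.288 to 6.86 ± 0.510 CPM, and CBP60G, a regulator of salicylic acid synthesis, from 5.49 ± 1.15 to 13.43 ± 1.18 CPM (limma adjusted p = 2.58e-09 and 1.03e-09). PHI-1, WRKY33, WRKY22, WRKY53, PR2 and SARD1 rose by 0.37 to 0.99 on the log2 scale. WRKY29, CYP81F2 and PR5 were not called (limma adjusted p = 0.924, 0.657 and 0.814). NHL10 and PER4, at no more than 0.22 CPM in any library, were not tested. CYP71B15, which makes the antimicrobial camalexin, was called lower (log2 fold change -0.96, limma adjusted p = 4.22e-03). It passed the filter only through WT, at 0.86 to 1.37 CPM against 0.28 to 0.40 CPM in hrlp-2.

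CLV2 and TMM, RLPs whose rows carry no RLP number, were not called (limma adjusted p = 0.655 and 0.162). Among the 14 tested genes of their pathways, the kinases CLV1 and ER rose and the stomatal genes EPFL9 and FAMA fell (median log2 fold change 0.04). Guard cell markers fell for 2 of 5 tested members (FAMA and MYB60), with a summed level of 82.34 to 86.68 CPM in WT and 68.39 to 73.89 CPM in hrlp-2. The summed root markers were at 338.48 to 345.26 and 396.62 to 411.48 CPM, with 2 of 3 tested members higher. These were PYK10 (231.6 to 266.9 CPM) and TIP2;2 (107.6 to 134.8 CPM), which hold nearly all of the sum. NRT2.1 was not called (log2 fold change -0.29). COBL9 and PHT1;1 reached at most 0.27 CPM, and the endodermal markers CASP2 and CASP4 were at 0. Phloem markers were at 136.36 to 138.55 and 149.58 to 161.16 CPM (1 of 3 higher, SUC2). APL and SEOR1 were not called, at log2 fold changes of 0.14 and -0.10, and none of 3 trichome markers was called. Mesophyll markers, which leaves and cotyledons in the aerial parts express, were at 37112 to 38220 and 37604 to 38014 CPM, with 3 of 5 higher and 1 lower. The part of these marker differences in the RLP values was not tested.

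**Figure D5:**
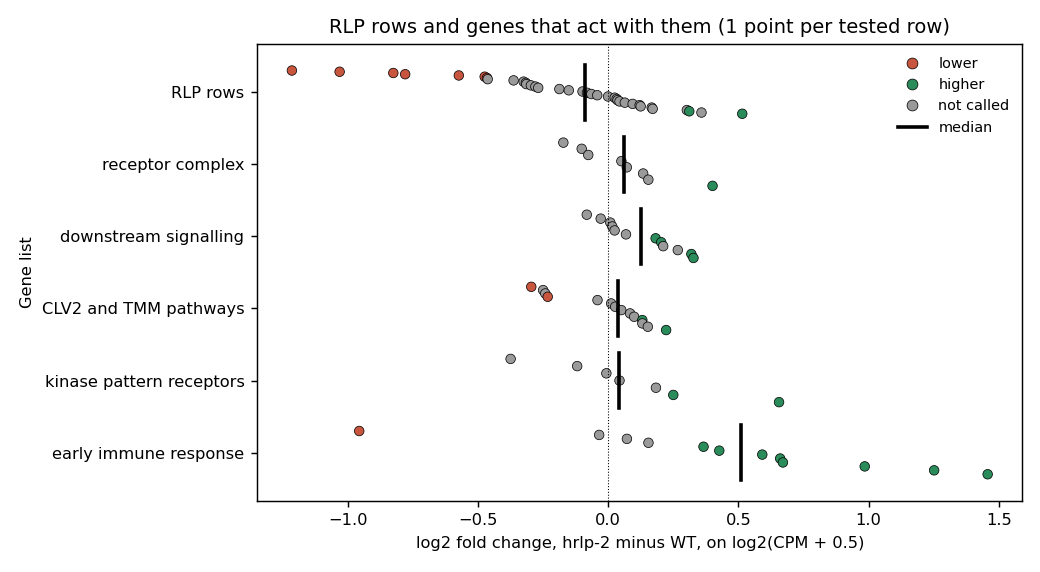
Log2 fold change (hrlp-2 minus WT) of each tested member of the RLP rows and of the 5 lists of signalling and immune genes, with a black line at each median. The median of the RLP rows lies at -0.09 and that of the early immune response list at 0.51.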

How the data were processed

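RNA was measured in 6 libraries, 3 of WT and 3 of hrlp-2, made from total RNA with a directional kit, per the labels' protocols. The authors deposited 1 table per library of read counts scaled to a common total (CPM). The submitters' processing notes name STAR 2.7.3a and TAIR10. The sources used here do not give the read counter, its annotation, its strand setting or a filter. Columns summed to 1000000.45 to 1000007.79. Between 87.99% and 89.53% of low values lay within 0.0051 CPM of whole multiples of 1 step per library (20.35% to 25.68% by chance), which put 1 CPM at 19.95 to 25.18 reads. The rest did not, so no count model was the main test. Depths and floors from these steps cover counting error only.

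The 1 row without a name was left out. The RefSeq gene table (TAIR10.1) gave a locus for 18078 of 22759 row names, including all 50 RLP rows. RLP numbers that no row name carries are not analysed here, and neither are list members whose name is shared by different genes, has no matched locus or has no row.

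Rows that reached 0.5 CPM in 3 or more libraries were scaled with trimmed-mean factors (0.990 to 1.013, 30% of M and 5% of A values trimmed), a pseudocount of 0.5 CPM was added, and log2 values were tested with limma 3.58.1 in R 4.3.3 (intensity trend, two-sided, Benjamini-Hochberg, threshold 0.05). The fitting functions were tested on made-up data with known changes. With 3 libraries against 3, an exact permutation test cannot go below p = 0.1. Coding sequences, identities and upstream windows were read from the TAIR10.1 genome with Python 3.11.15 and Biopython 1.88. Each identity is a share of aligned bases, with gaps left out.

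The members and lists were chosen with earlier results of these data known. Named with values are called RLP rows, RLPs with a described role, the highest and lowest levels per coding kb, rows beside the filter, and called list members with 6 fixed partners. Cluster neighbours and the rows whose groups did not overlap were named after their values were seen. Replicate libraries are called biological replicates in the series' design. On estimated reads, pairs within groups differed by more than counting noise (median chi-square 0.796 to 0.916 against 0.455), so none was a copy of another library's reads. That check cannot tell separate plants from separate libraries of the same RNA. Alternatives were other scalings, pseudocounts and filters, limma-voom on estimated reads, the replicate number as a block and leaving out each library.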

Additional observations from a re-analysis of the deposited data

How the results depend on the processing

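AtRLP31, AtRLP42, AtRLP50, AtRLP54 and AtRLP13 stayed lower and called in all 16 alternatives. The number of RLP rows called lower was 6 to 8 in every alternative, and the median of the tested RLP rows ranged from -0.14 to -0.04. The number called higher was 1 instead of 2 on deposited CPM that were not rescaled, without a filter, with limma-voom on estimated reads, with a pseudocount of 0.1 CPM and with the replicate number as a block. It was 1 to 2 when a library was left out. AtRLP23 was not called in any of these alternatives with 1 row higher. Without the third hrlp-2 library AtRLP19 was lost too, and RLP47 was called in its place. AtRLP32 was not called without a filter (adjusted p = 0.0543). The cause was not tested. No pairing by replicate number was seen (correlations of deviations -0.008, -0.016 and -0.026), which does not show how the libraries were made. With the block, 7 RLP rows were called lower.

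Signs changed in rows that were not called. AtRLP9, at -0.001, was 0.001 without a filter and 0.002 with a pseudocount of 1 CPM. When libraries were left out, AtRLP9 ranged from -0.135 to 0.067, AtRLP26 from -0.204 to 0.196, AtRLP29 from -0.037 to 0.121, AtRLP34 from -0.012 to 0.061, AtRLP35 from -0.211 to 0.083, AtRLP36 from -0.019 to 0.222, AtRLP48 from -0.096 to 0.162 and RLP12 from -0.137 to 0.144.

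Summing RLP rows that share at least 75 coding bases, chosen after seeing the data, gave 2 called higher and 6 lower. In the lists, 14 to 17 members were called higher and 2 to 3 lower. ATRLP40 had no test under the filter of 1 CPM. Reads limit rows near 0.5 CPM.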
